A study of Mus musculus with 12 samples.

Results

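The genotype by stress interaction was examined in female mice, in the medial prefrontal cortex: for each gene, the stress difference in Cav3.1 knockout (KO) mice (stressed minus unstressed) minus the stress difference in wild-type (WT) mice. All 12 libraries of the series enter this contrast, in 4 groups of 3, WT and KO, each without and with stress. The genes described are the 15199 of 24411 gene symbols in the table that had enough counts to be tested. All mice were C57BL/6J females aged 8 to 12 weeks; the stressed groups underwent a forced swim or a tail suspension test of 5 min, once a day for 5 days, and the unstressed groups had no treatment. The KO mice came from a bioresource centre and the WT mice from a commercial breeder, so genotype and colony cannot be told apart. Whether the 3 libraries of each group are from different animals is not stated in the labels, and p-values measure only the spread among libraries.

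Cav3.1, the product of Cacna1g, is a low-voltage-activated (T-type) calcium channel that opens near the resting potential and supports burst firing of neurons. The medial prefrontal cortex takes part in the control of behaviour under stress and receives strong thalamic input, a site of high Cav3.1 expression. An interaction term asks whether the difference that goes with stress is the same in both genotypes. It is positive where the stress difference is more positive in KO, and it can be large because 1 genotype alone differs with stress or because the genotypes differ in opposite directions.

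Cacna1g itself stood at 132.7, 144.1 and 135.3 CPM (counts scaled to library size) in unstressed WT, 128, 109.8 and 109.4 CPM in stressed WT, 65.1, 54.6 and 61.7 CPM in unstressed KO, and 58.5, 65.95 and 57.6 CPM in stressed KO. Every KO library lay below every WT library, and transcript was still counted in KO. Its stress difference was −0.25 in WT and 0.01 in KO on the log2 scale, an interaction of 0.25 ± 0.13 (SE; edgeR adjusted p = 0.209). The gene lies on chromosome 11 at 94408391 to 94474198 (GRCm38).

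Some libraries stood apart from the others of their group. Library totals ran from 15469590 to 31082240. The summed level of 29 olfactory bulb and olfactory epithelium markers was 3390 CPM in library 1 and 3164 CPM in library 2 of unstressed WT, while the other 10 ranged from 700.5 to 1162 CPM. The 31 meningeal and fibroblast markers summed to 815.3 and 899.8 CPM in the same pair and to between 282.7 and 490 CPM elsewhere. Of the 26 striatal markers in the table, the sum was 1939 CPM in stressed KO library 1 and between 783.5 and 988.6 CPM elsewhere. Cortical excitatory neuron markers, which fit the labelled tissue, summed to between 5692 and 8201 CPM. The lowest were library 1 of unstressed WT at 5692, library 1 of stressed KO at 6255 and library 2 of unstressed WT at 6270. Unstressed WT enters the interaction directly. The counts over all genes, the pathway list counts and some named genes are therefore also given without unstressed WT libraries 1 and 2. That fit leaves the group with library 3 alone and assumes that it varies like the other groups. A named gene with no such value is given with all 12 libraries only, and how far it rests on those 2 libraries is not shown.

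No gene passed the threshold. The edgeR quasi-likelihood test gave 0 of 15199 genes (0%) an adjusted p under 0.05, although 4330 (28.5%) had an unadjusted p under 0.05, 2209 of them positive (14.5%) and 2121 negative (14.0%). The smallest adjusted p was 0.0506, shared by 93 genes, and 2218 genes (14.59%) had an adjusted p under 0.1. With DESeq2 1885 genes passed, and with the sample weights of limma voom 4522. Without unstressed WT libraries 1 and 2, 0 genes passed (smallest adjusted p 0.156) and 1963 (12.9%) had an unadjusted p under 0.05; 1563 of these were among the 4330 with the same sign, 36.1% of the larger and 79.62% of the smaller set. The levels and differences that follow are therefore descriptions only. No gene was past the threshold in the edgeR fit of all libraries, and some named genes were far from it.

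Most of the 4330 genes had stress differences of opposite sign in the 2 genotypes: 3608 (83.33%), against 53.82% of all tested genes. These genes were chosen by the difference between the same 2 stress differences, which by itself favours opposite signs. The share is a description only, as is every later count of opposite signs among genes chosen by their interaction. With all 12 libraries, the stress difference had an edgeR unadjusted p under 0.05 in WT alone in 3166 of the 4330 genes (73.12%). It did so in KO alone in 443 (10.23%), in both in 280 and in neither in 441. The WT difference uses unstressed WT libraries 1 and 2, which stood apart, and without them the split leaned less to WT. It describes these 4330 genes only, with no share over all tested genes beside it. Differences in opposite directions, each with an unadjusted p under 0.05, were found in 273 genes, 144 with a positive and 129 with a negative interaction; with an adjusted p under 0.05 in both genotypes there were 0. The median size of the stress difference over all genes was 0.22 log2 in WT and 0.11 in KO, and 0.17 in WT without libraries 1 and 2. A set of 1129 genes (7.43%) had an unadjusted p under 0.05 with the same sign in 15 fits: the fit of all libraries, the 12 that leave out 1 library, the fit without unstressed WT libraries 1 and 2, and the fit with the olfactory marker score as a covariate. Of these, 517 were positive and 612 negative, 1068 had opposite signs in the 2 genotypes, 771 had a stress difference with p under 0.05 in WT alone and 101 in KO alone.

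**Figure D1:**
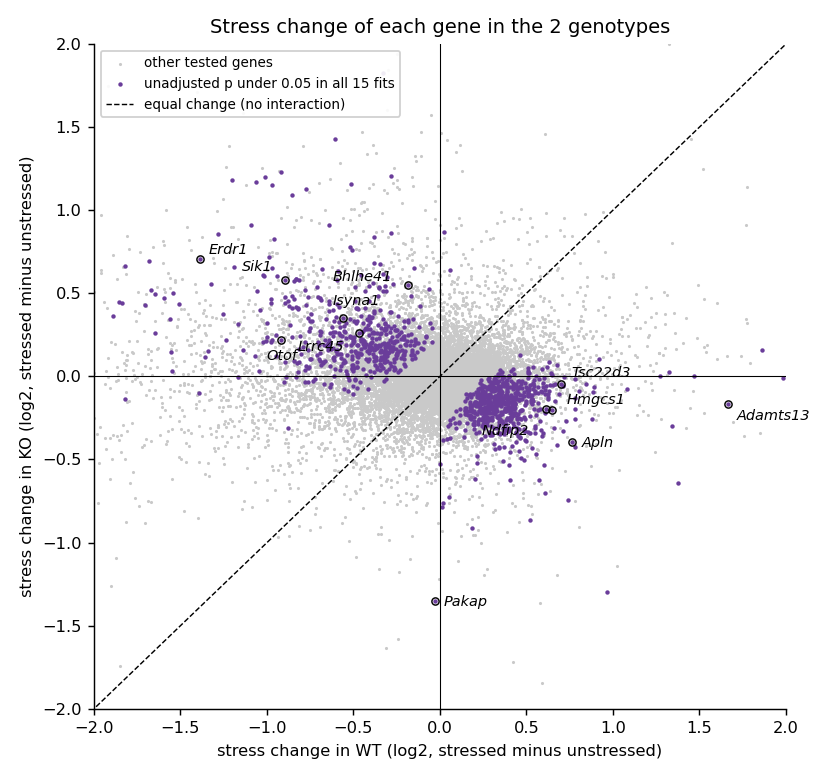
Stress difference (log2, stressed minus unstressed) of each tested gene in WT (x axis) and in KO (y axis); purple points are the 1129 genes with an unadjusted interaction p under 0.05 in all 15 fits, the dashed line marks equal differences, and circles mark genes named in the text. The purple points lie mostly in the upper left and lower right, where the signs are opposite (1068 of 1129). Their selection by the interaction itself favours these positions. Outside the axes, which end at 2, lie 217 genes, 24 of them purple.

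The 4 group means showed where these genes stood. In 1046 of the 1129 genes (92.6%) the mean of unstressed KO lay nearer to that of stressed WT than to that of unstressed WT, against 70.2% of all tested genes. Unstressed WT was the group farthest from the mean of the other 3 in 803 (71.1%), against 52.6% of all tested genes. Both comparisons use the same unstressed WT libraries as the interaction and are given as a description only. Of the 273 genes with opposite differences in both genotypes, unstressed WT was the farthest group in 133 (48.7%).

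Genes whose libraries separated in opposite directions, with all 3 stressed libraries above all 3 unstressed libraries in one genotype and below them in the other, numbered 523 (3.44%), of which 264 had a positive and 259 a negative interaction. The 8 named next were taken from genes with opposite differences, each with an edgeR unadjusted p under 0.05 in both genotypes. Among those with a proper name and a mean log2 CPM not below 0, they had the smallest interaction p. They were chosen after their values were seen. In all 8 the libraries separated in this way.

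Lrrc45, a protein of the fibres that link centrosomes, stood at 42.1, 44.6 and 43.9 CPM in unstressed WT and 34.2, 29.8 and 30.5 CPM in stressed WT. In KO the order was the other way round, with 35.6, 32.3 and 30.9 CPM unstressed and 41.0, 40.2 and 37.1 CPM stressed. The interaction was 0.73 ± 0.11 (SE) with an edgeR adjusted p of 0.0506, and 0.74 without unstressed WT libraries 1 and 2. Lrrc45 lies on chromosome 11 at 120713925 to 120721128.

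Pcgf2, a Polycomb group RING finger protein of chromatin, stood at 30.1, 32.2 and 27.1 CPM in unstressed WT, 21.9, 17.1 and 20.5 CPM in stressed WT, 22.2, 16.8 and 19.6 CPM in unstressed KO, and 24.8, 27.4 and 26.5 CPM in stressed KO. Stressed WT and unstressed KO overlapped at the lower level, and unstressed WT and stressed KO at the higher. Its log2 stress difference was −0.58 in WT and 0.42 in KO (interaction 1.01 ± 0.17; 0.87 without the 2 libraries).

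Isyna1, the enzyme that makes inositol phosphate from glucose 6-phosphate, stood at 30.8, 39.3 and 30.1 CPM in unstressed WT, 21.7, 20.98 and 25.2 CPM in stressed WT, 22.3, 21.1 and 19.1 CPM in unstressed KO, and 27.1, 26.2 and 26.6 CPM in stressed KO. Its stressed KO libraries lay between those of unstressed and stressed WT. The log2 stress difference was −0.56 in WT and 0.35 in KO (interaction 0.91 ± 0.16). Isyna1 lies on chromosome 8 at 70594373 to 70597290.

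Bbc3, which encodes the pro-apoptotic protein Puma, stood at 10.3, 8.77 and 7.48 CPM in unstressed WT, 5.99, 4.97 and 5.46 CPM in stressed WT, 4.92, 6.21 and 5.43 CPM in unstressed KO, and 8.01, 7.14 and 7.75 CPM in stressed KO. The interaction of 1.16 ± 0.20 became 0.93 without unstressed WT libraries 1 and 2. Apln, the peptide ligand apelin, ran the opposite way: 13.04, 13.06 and 11.1 CPM in unstressed WT, 17.5, 20.3 and 25.4 CPM in stressed WT, 17.3, 17.8 and 13.9 CPM in unstressed KO, and 11.8, 12.8 and 12.7 CPM in stressed KO. Its interaction was −1.16 ± 0.20 and −1.32 without the 2 libraries; Apln lies on the X chromosome at 48025146 to 48034853.

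Of the other 3, Cep164, a protein of the distal appendages of centrioles, had log2 stress differences of −0.63 in WT and 0.30 in KO. Sox12, a transcription factor, had −0.70 and 0.28. Erdr1 had the widest span, with 100.9, 114.4 and 85.9 CPM in unstressed WT, 45.5, 27.4 and 42.0 CPM in stressed WT, 36.9, 35.6 and 28.7 CPM in unstressed KO, and 48.7, 71.0 and 45.3 CPM in stressed KO. Its interaction was 2.09 ± 0.29 and 1.87 without the 2 libraries. Erdr1 was not matched to a position in the annotation used here and is a gene with near-identical copies. Its counts are taken as uncertain for these reasons, although they carried decimals in 0 libraries.

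**Figure D2:**
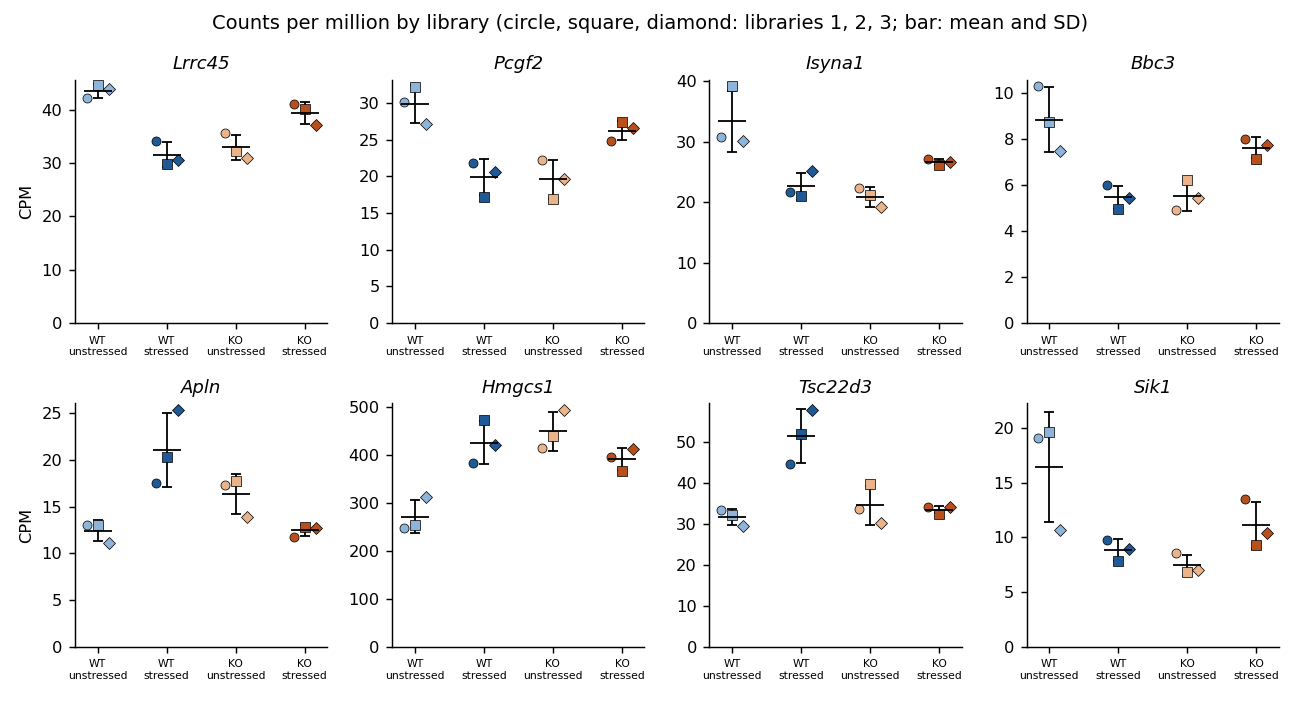
CPM in each of the 12 libraries for 8 genes, with group mean and SD as bars. For Lrrc45, Pcgf2, Isyna1, Bbc3 and Sik1 stressed WT libraries lie below and stressed KO libraries above the unstressed libraries of their genotype; for Apln and Hmgcs1 the order is the other way, and for Tsc22d3 only the WT groups separate.

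The other genes among the 20 smallest interaction p all had an edgeR adjusted p of 0.0506, and in most the stress difference in KO was small. Hnmt, the enzyme that inactivates histamine in brain, had a mean of 23.1 CPM in unstressed WT and 34.5 CPM in stressed WT, against 37.7 and 32.9 CPM in KO (interaction −0.78 ± 0.13; −0.81 without the 2 libraries). Lynx1, a membrane-anchored protein that restrains nicotinic acetylcholine receptors, stood at 216.9, 239.1 and 291 CPM in unstressed WT and between 339 and 502.1 CPM in the other 9 libraries (interaction −0.95 ± 0.16). Adamts13, the protease that cleaves von Willebrand factor, stood at 0.516, 0.675 and 0.828 CPM in unstressed WT and between 1.65 and 2.61 CPM in the others (interaction −1.83 ± 0.33). In both genes every unstressed WT library lay below all others.

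Other genes of the 20 had both signs. Pan2, the catalytic subunit of a poly(A) nuclease, was on the positive side, with log2 stress differences of −0.83 in WT and 0.08 in KO. Baz2a, a subunit of a complex that silences ribosomal DNA, had −0.54 and 0.13, and Pnisr, a nuclear protein with arginine-serine repeats, −0.76 and 0.16. Positive values were also found for Adamts10, a matrix-associated protease (interaction 0.84), and Slc6a6, the taurine transporter (0.79). Without unstressed WT libraries 1 and 2 these were 0.85 and 0.71. Ano6, a calcium-activated lipid scramblase, had 1.20, and Trp53i11, a gene induced by p53, had 0.59. These became 0.77 and 0.48 without the 2 libraries. Ndfip2, an adaptor of Nedd4-family ubiquitin ligases (−0.81), and Fbxo9, an F-box protein (−0.62), were on the negative side.

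Without unstressed WT libraries 1 and 2 the smallest p belonged to Otof, otoferlin, a calcium sensor for vesicle fusion. It stood at 19.8, 26.6 and 38.4 CPM in unstressed WT, 14.5, 13.5 and 16.8 CPM in stressed WT, 17.0, 13.3 and 14.0 CPM in unstressed KO, and 15.5, 19.8 and 16.4 CPM in stressed KO. Its interaction was 1.14 ± 0.29 with all libraries (edgeR adjusted p = 0.0583) and 1.58 without the 2. Cdc25b, a phosphatase that activates cyclin-dependent kinases, had 0.53 and 0.87 in the same 2 fits, and Akap8l, a nuclear anchoring protein, 0.73 and 0.87. Aldh1a7 had −1.47 and −1.88, but its counts carried decimals in 11 libraries and are uncertain. Vwa3a (0.54 and 1.14) and the long noncoding RNA Miat (0.58 and 1.26) depended on which unstressed WT libraries entered. Miat stood at 191.2, 319.5 and 583.1 CPM in that group. With all libraries the edgeR adjusted p was 0.325 for Vwa3a and 0.378 for Miat.

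Genes with a stress difference at an unadjusted p under 0.05 in KO and not in WT were fewer. The 10 with the smallest interaction p were chosen after their values were seen. The leading one, Pakap, stood between 22.2 and 33.7 CPM in the 9 libraries other than stressed KO and at 13.9, 11.5 and 10.1 CPM in stressed KO, an interaction of −1.32 ± 0.18 (edgeR adjusted p = 0.0506). Pakap overlaps Akap2 and Palm2 on chromosome 4, and its counts carried decimals in all 12 libraries, so they depend on how reads were shared out among the 3.

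Grin2b, the GluN2B subunit of NMDA-type glutamate receptors, stood at 68.1, 86.9 and 90.4 CPM in unstressed KO and 57.0, 40.6 and 32.2 CPM in stressed KO. In WT it stood at 53.5, 56.4 and 63.7 CPM unstressed and 69.2, 72.0 and 56.3 CPM stressed, where the groups overlapped. The interaction was −1.09 ± 0.26 (edgeR adjusted p = 0.0546). Arhgap5, a GTPase-activating protein, stood at 145.5, 163.8 and 157.1 CPM in unstressed KO against 114.2, 109.2 and 100 CPM in stressed KO, with a WT stress difference of 0.00.

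Nek7, a kinase of the inflammasome pathway, had a log2 stress difference of −0.32 in KO and 0.15 in WT. Adam9, a membrane protease, had −0.23 and 0.12, Pcsk1, a prohormone convertase, −0.48 and 0.22, and Tbc1d8b −0.52 and 0.22. For Mib1, a ubiquitin ligase of Notch signalling, the values were −0.73 and 0.05. On the positive side Ell, an elongation factor of RNA polymerase II, had 0.35 in KO and −0.16 in WT. In Nek7, Adam9 and Ell the WT libraries also separated, in the opposite direction to those of KO.

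Pathway lists were described by counts and medians, beside 28.5% of all tested genes with an unadjusted p under 0.05 and a median interaction of −0.02. Without unstressed WT libraries 1 and 2 the share of all tested genes was lower, as given above. List counts in that fit are to be read beside that lower share and not beside 28.5%. With all libraries, the pathway list with the highest share was oxidative phosphorylation, the respiratory chain complexes and ATP synthase of mitochondria. Of 76 members 0 passed the threshold, 52 (68.4%) had a negative interaction with an unadjusted p under 0.05 and 0 a positive one, and 75 were negative. The median stress difference was 0.31 in WT and −0.12 in KO, and the median interaction −0.42. Without unstressed WT libraries 1 and 2 the counts were 49 negative and 0 positive, with a median of −0.46.

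Complex I subunits led that list. Ndufb3 stood at 57.0, 48.4 and 50.3 CPM in unstressed WT, 70.2, 70.7 and 61.8 CPM in stressed WT, 68.1, 90.5 and 65.5 CPM in unstressed KO, and 54.9, 59.6 and 65.7 CPM in stressed KO. Its WT groups separated and its KO groups overlapped, with unstressed KO library 2 the highest of all 12. The interaction was −0.70 ± 0.17 (edgeR adjusted p = 0.0577). Ndufa9 had −0.42, Ndufb9 −0.80 and the complex III subunit Uqcr10 −0.74.

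A single library weighed on this list. The list score of unstressed KO library 2 (its members' log2 CPM averaged after centring each on the 12 libraries) was 0.40, against −0.04 and 0.06 in the other 2 of its group. Without it the median interaction was −0.29 and 39 of 76 members had a negative interaction with an unadjusted p under 0.05. Removing each library's trend of log2 CPM over transcript GC content and length gave a median of −0.26.

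Mitochondrial ribosomal proteins, which translate the proteins encoded by mitochondrial DNA, had a similar but smaller pattern. Of 76 members 27 had a negative interaction with an unadjusted p under 0.05 and 0 a positive one (35.5%), with median stress differences of 0.24 in WT and −0.02 in KO and a median interaction of −0.27. Without unstressed KO library 2 there were 16 negative members and a median of −0.19; without unstressed WT libraries 1 and 2 there were 22 and the median was −0.27. Removing each library's trend over GC content and length gave a median of −0.17. Mrps14 stood at 25.8, 23.9 and 26.2 CPM in unstressed WT, 36.6, 36.8 and 31.7 CPM in stressed WT, 34.1, 39.1 and 30.2 CPM in unstressed KO, and 29.2, 27.5 and 33.0 CPM in stressed KO. Every unstressed WT library lay below every other library but no such gap parted the KO groups.

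With all libraries, cytosolic ribosomal proteins had 10 of 78 members negative and 0 positive at an unadjusted p under 0.05 (12.8%). This was below the share of all genes in the same fit, although 75 of 78 had a negative interaction. In the fit without unstressed WT libraries 1 and 2 there were 14 negative and 0 positive members and a median of −0.40. The median of −0.31 with all libraries became −0.14 with each library's trend over GC content and length removed. It became −0.09 without unstressed KO library 2, whose list score was 0.52 against −0.17 to 0.09 in the rest of stressed and unstressed KO. Rps21 stood at 254.2 CPM in that library and between 76.1 and 132.4 CPM in the other 11. Rpl34, with an interaction of −1.20, carried decimals in all 12 libraries; ribosomal protein genes have many near-identical pseudogenes and its counts are uncertain. Rpl26 had no count in any library.

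Cholesterol synthesis is the chain of enzymes from acetyl-CoA to cholesterol, most of which is made locally in the brain. In these data 13 of 24 members had a negative interaction with an unadjusted p under 0.05 and 0 a positive one (54.2%). The median stress difference was 0.37 in WT and 0.01 in KO, and the median interaction −0.36, with a range over 23 alternatives of −0.41 to −0.20. Without unstressed WT libraries 1 and 2 there were 6 negative members, 0 positive ones and a median of −0.29.

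Hmgcs1, the synthase that feeds HMG-CoA into the pathway, stood at 247.7, 254.6 and 311.5 CPM in unstressed WT, 382.8, 472.2 and 419.6 CPM in stressed WT, 414.9, 438.3 and 494.3 CPM in unstressed KO, and 394.9, 367.1 and 411.4 CPM in stressed KO. The WT groups and the KO groups each separated, in opposite directions. The interaction was −0.85 ± 0.16 (edgeR adjusted p = 0.0506) and −0.65 without the 2 libraries.

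Idi1, the isomerase that makes dimethylallyl diphosphate, stood at 46.8, 42.0 and 44.3 CPM in unstressed WT, 57.0, 72.4 and 67.6 CPM in stressed WT, 73.7, 79.3 and 66.9 CPM in unstressed KO, and 69.8, 56.8 and 64.3 CPM in stressed KO. Its interaction was the same to 2 digits with all libraries and without the 2 (−0.77). The sterol demethylase Cyp51 had −0.59, the methylsterol oxidase Msmo1 −0.72, the desaturase Sc5d −0.48 and the farnesyl diphosphate synthase Fdps −0.55. In the list score the lowest 3 libraries were the 3 of unstressed WT, at −0.39, −0.37 and −0.20, and the other 9 lay between −0.03 and 0.19.

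Promoters of this list are shown because sterol-regulated genes are known to carry a sterol response element and nearby CCAAT boxes. RefSeq promoter windows (GRCm38.p6), 250 bases upstream of each listed start, were matched for 17 of 24 members and 11461 of the 15199 tested genes. The letters ATTGG (an inverted CCAAT box; both strands searched) were in 16 of the 17 (94.1%) and in 40.1% of all, and TCACNCCAC (a sterol response element; both strands) in 1 of 17, Hmgcs1, and in 1.25% of all. ATTGG was also in 12 of 18 members of the circadian clock list (66.7%) and in 9 of 27 of the immediate early list (33.3%). A match is a string of letters and not evidence of binding. Of the 2 windows below, that of Hmgcs1 is printed in full and that of Sc5d as its 200 bases nearest the start. Both run 5′ to 3′ on the strand of the gene and end at the base before the start. Capitals mark the letters searched: in Hmgcs1 (chr13:119690101-119690350, plus strand) the element TCACCCCAC and 3 inverted CCAAT boxes, and in Sc5d (chr9:42264301-42264500, minus strand) 1 inverted CCAAT box.
Hmgcs1: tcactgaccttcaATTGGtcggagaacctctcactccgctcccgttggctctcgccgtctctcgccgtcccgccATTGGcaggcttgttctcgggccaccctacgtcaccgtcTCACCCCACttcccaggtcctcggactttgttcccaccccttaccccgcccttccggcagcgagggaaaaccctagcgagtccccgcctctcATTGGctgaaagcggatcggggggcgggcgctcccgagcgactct
Sc5d: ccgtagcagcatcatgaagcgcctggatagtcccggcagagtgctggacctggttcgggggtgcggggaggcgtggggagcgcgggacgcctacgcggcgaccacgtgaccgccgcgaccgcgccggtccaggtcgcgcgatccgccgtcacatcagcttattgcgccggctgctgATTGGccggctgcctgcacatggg

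**Figure D3:**
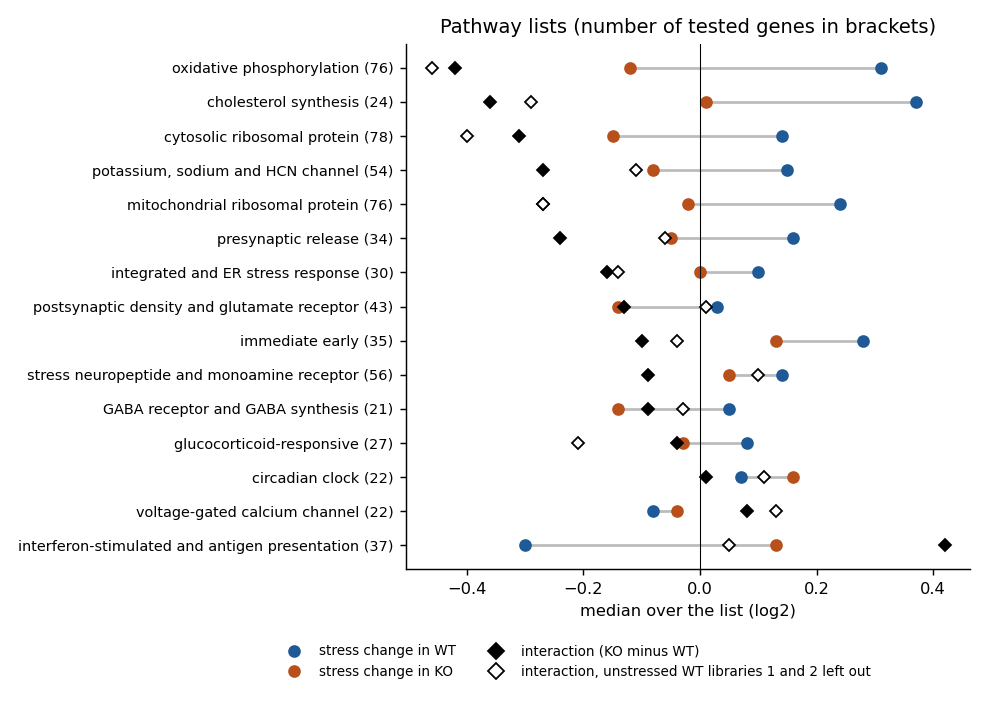
Median log2 stress difference in WT (blue) and KO (orange), and median interaction with all libraries (filled diamonds) and without unstressed WT libraries 1 and 2 (open diamonds), for 15 pathway lists with the number of tested members in brackets. Oxidative phosphorylation (−0.42 and −0.46) and cholesterol synthesis (−0.36 and −0.29) lie on the left in both fits, and the interferon list moves from 0.42 to 0.05.

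Glucocorticoid-responsive genes, which are induced when stress hormone binds its receptor, were split. Of 27 members 6 had a negative and 2 a positive interaction with an unadjusted p under 0.05 (29.6%), and the median interaction was −0.04. That median was 0.10 without unstressed KO library 2, and −0.21 without unstressed WT libraries 1 and 2, where 5 members were negative and 1 positive at that p. Tsc22d3, the glucocorticoid-induced leucine zipper, stood at 33.5, 32.2 and 29.6 CPM in unstressed WT and 44.8, 51.9 and 57.9 CPM in stressed WT. In KO it stood at 33.7, 39.8 and 30.2 CPM unstressed and 34.1, 32.5 and 34.1 CPM stressed, so that only the WT groups separated. The interaction was −0.74 ± 0.16 (edgeR adjusted p = 0.0507) and −0.84 without the 2 libraries.

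Sgk1, a kinase induced by the same hormone, had log2 stress differences of 0.65 in WT and −0.05 in KO, and its interaction of −0.70 became −0.39 without the 2 libraries. Klf9, a transcription factor, had 0.36 and −0.06, and Zbtb16, a zinc finger repressor, 0.57 and −0.28. Hsd11b1, the enzyme that regenerates active glucocorticoid, had an interaction of −1.09. Fkbp5, the chaperone that restrains the receptor, went the other way at 0.25 ± 0.12 (edgeR adjusted p = 0.178).

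Immediate early genes, which respond to neuronal activity, had 4 positive and 5 negative members of 35 at an unadjusted p under 0.05 (25.7%), and 2 of each without unstressed WT libraries 1 and 2. Sik1, a salt-inducible kinase, stood at 19.1, 19.7 and 10.7 CPM in unstressed WT, 9.81, 7.84 and 8.97 CPM in stressed WT, 8.58, 6.80 and 6.97 CPM in unstressed KO, and 13.5, 9.35 and 10.44 CPM in stressed KO. Libraries 1 and 2 of unstressed WT were the highest, and the interaction of 1.47 ± 0.31 became 0.85 without them. Homer1, a postsynaptic scaffold with an activity-induced short form, had −0.79 ± 0.17, and −0.57 without the 2 libraries. It stood at 233.9, 216.5 and 250.9 CPM in unstressed KO against 158.9, 170.3 and 193.6 CPM in stressed KO. Jun had 0.40 and Ier5 −0.55, and 0.24 and −0.47 without the 2 libraries. Ier5 stood at 57.5, 58.6 and 63.0 CPM in unstressed WT against 92.9, 88.0 and 88.5 CPM in stressed WT.

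The circadian clock list, of transcription factors and repressors that run the daily rhythm, had 5 positive and 2 negative members of 22 at an unadjusted p under 0.05 (31.8%), and 5 and 1 without unstressed WT libraries 1 and 2. Per3, a period repressor, stood at 31.8, 36.0 and 31.0 CPM in unstressed WT and 31.97, 31.0 and 39.9 CPM in stressed WT, where the groups overlapped. In KO it stood at 25.6, 23.5 and 27.9 CPM unstressed and 39.2, 42.8 and 37.7 CPM stressed, where they did not. The interaction was 0.58 ± 0.15 (edgeR adjusted p = 0.0615) and 0.49 without the 2 libraries; Per3 overlaps Camta1 on the same strand.

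Bhlhe41, a repressor that competes at clock E-boxes, stood at 36.1, 40.2 and 34.0 CPM in unstressed KO and 47.3, 56.3 and 58.2 CPM in stressed KO, with a WT stress difference of −0.18. Its interaction was 0.74 ± 0.17 and 0.44 without the 2 libraries. Per1 had 0.40 in both fits. Cry1, a cryptochrome, had 0.52 (0.31 without the 2 libraries). The hour of sampling is not given in the sources used here, and its part in these values was not tested.

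The core E-box letters CACGTG (both strands read the same) were in 5 of the 18 clock members with a promoter window (27.8%), against 9.56% of all windows. The shares were similar in the immediate early list (7 of 27, 25.9%) and the cholesterol list (4 of 17, 23.5%), so these letters are not particular to clock genes here. The window of Cry1, among the 4 clock members with the smallest p, is shown as an example. Cry1 is not among the 1129 genes of the 15 fits. Bhlhe41, also of those 4, has the letters in its window too. The stretch is chr10:85185065-85185264, minus strand, 200 bases ending 10 bases short of the base before the start. Capitals mark CACGTG.
Cry1: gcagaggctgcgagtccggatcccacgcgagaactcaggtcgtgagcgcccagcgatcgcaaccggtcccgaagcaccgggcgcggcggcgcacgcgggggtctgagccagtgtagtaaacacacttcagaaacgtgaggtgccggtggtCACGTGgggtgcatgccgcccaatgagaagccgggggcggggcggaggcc

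The integrated and endoplasmic reticulum stress response had 7 negative and 3 positive members of 30 at an unadjusted p under 0.05 (33.3%), and a median interaction of −0.16. There were 3 negative and 0 positive members and a median of −0.14 without unstressed WT libraries 1 and 2. Hspa5, the main chaperone of that compartment, stood at 238.9, 227.2 and 229.5 CPM in unstressed WT, 291.2, 295.2 and 257.1 CPM in stressed WT, 271.2, 266.4 and 300.1 CPM in unstressed KO, and 254.2, 220.3 and 265.6 CPM in stressed KO, an interaction of −0.46 ± 0.12. The libraries separated in opposite directions in the 2 genotypes, by a narrow margin in KO. Sdf2l1, its cofactor, had −0.66, and Manf, a secreted protein of the same response, −0.50.

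Synaptic lists had shares near or below that of all genes, apart from the GABA list. Presynaptic release had 8 negative and 1 positive member of 34 at an unadjusted p under 0.05 (26.5%) and a median of −0.24. The counts were 6 negative and 0 positive, and the median −0.06, without unstressed WT libraries 1 and 2. Snap25, a SNARE protein of vesicle fusion, stood at 2429, 2248 and 2613 CPM in unstressed WT, 3335, 3605 and 3184 CPM in stressed WT, 3147, 3132 and 3406 CPM in unstressed KO, and 2686, 3091 and 3201 CPM in stressed KO. Only the WT groups separated; the interaction was −0.58 ± 0.14, and −0.48 without the 2 libraries. Vamp1, its partner on the vesicle, had −0.62.

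Postsynaptic and glutamate receptor genes had 7 negative and 5 positive members of 43 (27.9%), and 2 and 3 without unstressed WT libraries 1 and 2, with a median of −0.13 that became 0.01. Beside Grin2b, Grin2d, another NMDA receptor subunit, had a positive interaction of 1.17, and of 0.69 without the 2 libraries. It stood at 20.0, 33.4 and 16.8 CPM in unstressed WT and between 9.21 and 12.95 CPM in the other 9 libraries. GABA receptor and GABA synthesis genes had 4 positive and 4 negative members of 21 (38.1%), and 0 of either without unstressed WT libraries 1 and 2. Of these Slc6a11, a GABA transporter, had 1.24 with all libraries and 0.09 without the 2.

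Among voltage-gated calcium channel genes, the family of the deleted channel, 5 of 22 had a positive and 2 a negative interaction with an unadjusted p under 0.05 (31.8%). There was 1 of each without unstressed WT libraries 1 and 2. Cacna1h, which encodes the T-type channel Cav3.2, stood at 114, 106.4 and 105.7 CPM in unstressed WT, 83.2, 59.4 and 58.5 CPM in stressed WT, 77.4, 69.4 and 63.4 CPM in unstressed KO, and 71.4, 73.6 and 56.7 CPM in stressed KO. Every unstressed WT library lay above the other 9, and the KO groups overlapped. The interaction was 0.64 ± 0.20 (edgeR adjusted p = 0.0772) and 0.61 without the 2 libraries. Cacna1d, the L-type pore subunit Cav1.3, had 0.57 and 0.19 in the same fits. Cacng2, an auxiliary subunit of AMPA receptors also known as stargazin, had −0.45 and Cacnb4 −0.42.

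Potassium, sodium and HCN channel genes had 19 negative and 4 positive members of 54 (42.6%). Their median of −0.27 became −0.11 without unstressed WT libraries 1 and 2, with 3 negative and 1 positive member left at an unadjusted p under 0.05. Kcnip3, a calcium-binding partner of A-type potassium channels, had −0.64 (−0.35 without the 2). Stress neuropeptide and monoamine receptor genes had 8 negative and 7 positive members of 56 (26.8%) and a median of −0.09. These became 0 negative and 3 positive members and a median of 0.10 without unstressed WT libraries 1 and 2. Htr3a, the ionotropic serotonin receptor subunit, had 0.79, and Chrm4, a muscarinic receptor, 0.54 with 26.7, 23.7 and 23.9 CPM in unstressed KO against 30.3, 33.7 and 36.0 CPM in stressed KO. Penk, proenkephalin, had 2.27, with 153.5 CPM in stressed KO library 1, the library with high striatal markers, and 37.8 and 38.8 CPM in the other 2 of its group.

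Interferon-stimulated and antigen presentation genes had 11 positive and 0 negative members of 37 at an unadjusted p under 0.05 (29.7%) and a median interaction of 0.42. Leaving out unstressed WT libraries 1 and 2 left 2 positive members and a median of 0.05. Ddx58, the RIG-I sensor of viral RNA, stood at 6.02, 6.50 and 5.03 CPM in unstressed WT, 3.70, 3.68 and 4.06 CPM in stressed WT, 4.31, 3.79 and 3.94 CPM in unstressed KO, and 5.29, 5.54 and 5.06 CPM in stressed KO. Its groups separated in opposite directions, and its interaction was 1.02 ± 0.19 (edgeR adjusted p = 0.0506) and 0.80 without the 2 libraries. Irf9, a transcription factor of the interferon response, had 0.96 and 0.65, and Ifit3, uncertain through decimals in 11 libraries, 1.49 and 0.61.

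Cell type markers moved with the same contrast, and their part in the pathway values was not tested. Olfactory markers had 16 positive and 0 negative members of 27 at an unadjusted p under 0.05 (59.3%, against 28.5% of all tested genes). Their median interaction of 2.28 became 0.43 without unstressed WT libraries 1 and 2. Meningeal and fibroblast markers had 26 of 31 members positive at the same p (83.9%) and a median of 1.73 that became 0.82. For striatal markers, with 9 of 23 members positive and 0 negative at that p (39.1%), the median of 0.67 became 0.24 without stressed KO library 1. These shares were all lower without unstressed WT libraries 1 and 2, as was the share of all tested genes. Without unstressed WT libraries 1 and 2 the thalamic median of 0.86 became 0.37 and the endothelial and mural one went from 0.41 to 0.30. Thalamic markers summed to 1025 and 1008 CPM in those 2 libraries and to between 395.6 and 488.9 CPM elsewhere. Choroid plexus and ependymal markers summed to 35.17 and 41.76 CPM in the same 2 libraries. They summed to 27.68 CPM in stressed KO library 1 and to between 8.178 and 14.98 CPM elsewhere. Their median of 1.3 became 0.41 without unstressed WT libraries 1 and 2. It was 0.89 without stressed KO library 1 alone, and −0.01 without that library and unstressed WT libraries 1 and 2. The oligodendrocyte and myelin median was −0.54, with summed levels of 4079 CPM in stressed WT library 3, 3437 CPM in stressed KO library 1 and between 1621 and 2609 CPM elsewhere. It was −0.95 without stressed KO library 1 and −0.12 with the olfactory score as a covariate.

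**Figure D4:**
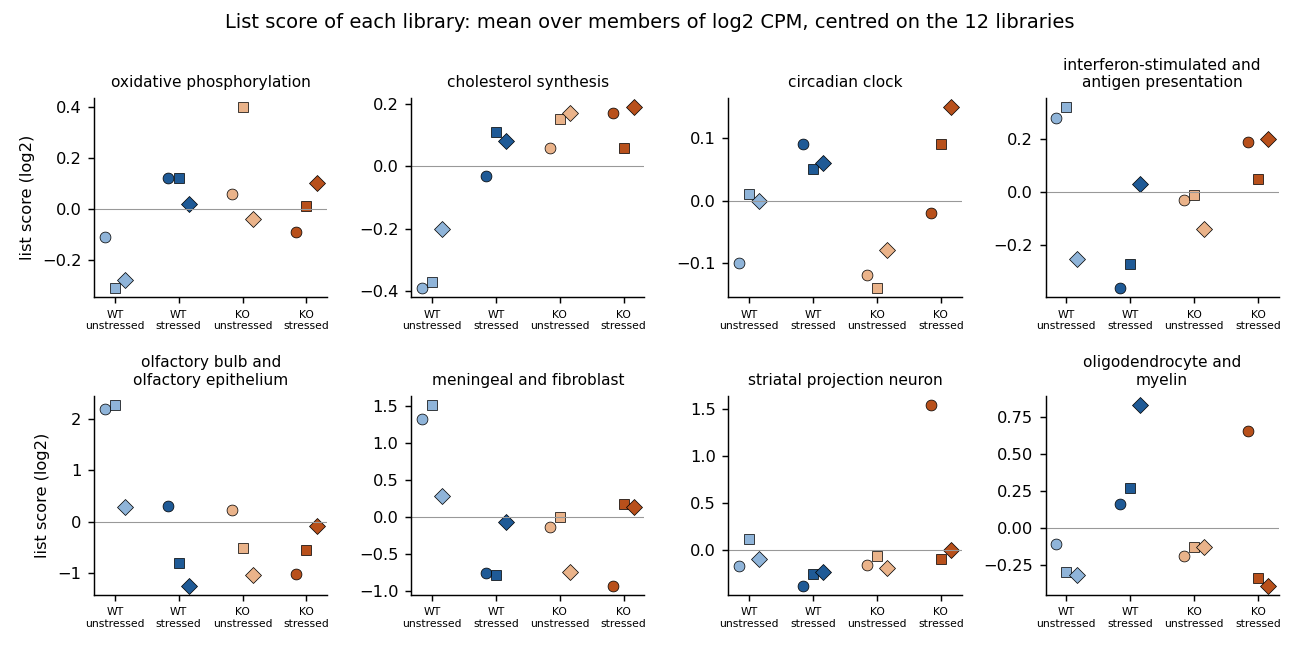
List score of each library (mean over members of log2 CPM, centred over the 12 libraries) for 4 pathway lists and 4 marker lists; circles, squares and diamonds are libraries 1, 2 and 3. Olfactory and meningeal scores of unstressed WT libraries 1 and 2 stand above all others (2.18 and 2.27, and 1.32 and 1.52), the striatal score of stressed KO library 1 is 1.55, and the oxidative phosphorylation score of unstressed KO library 2 is 0.40.

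Of the neuronal markers, interneuron genes had 11 positive and 6 negative members of 32 (53.1%, against 28.5% of all tested genes). Their median of 0.22 became 0.04 without unstressed WT libraries 1 and 2. In that fit the share of interneuron members was below that of all tested genes. Pvalb, the calcium buffer of fast-spiking interneurons, was on the negative side: 8.16, 9.41 and 14.3 CPM in unstressed WT, 22.0, 28.8 and 30.1 CPM in stressed WT, 20.4, 28.6 and 20.3 CPM in unstressed KO, and 15.0, 19.8 and 21.7 CPM in stressed KO. Every unstressed WT library lay below the other 9. The interaction was −1.64 ± 0.31 (edgeR adjusted p = 0.0506) and −1.21 without the 2 libraries. In such bulk tissue fewer cells of a type and less RNA per cell cannot be told apart. Reln, a secreted protein of superficial interneurons, had 1.24 and 0.37 in the same fits, with 230.2, 288 and 115.4 CPM in unstressed WT.

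The sign of the interaction went with transcript composition. Over 15062 genes with a value (99.1% of those tested), split into 5 equal bins, the median interaction was −0.13 in the bin with the lowest GC content (30.96 to 43.91%) and −0.07, −0.01, 0.05 and 0.09 in the next 4. In the bin of the shortest transcripts (80 to 2000 bases) it was −0.11 and in the other 4 between 0.00 and 0.02. Without unstressed WT libraries 1 and 2 the lowest and highest GC bins had −0.14 and 0.11. Of the 1129 genes described above, the 517 positive ones had a median GC content of 54.0% and a median length of 3.96 kb, and the 612 negative ones 44.9% and 2.60 kb, against 49.8% and 3.41 kb for all tested genes. With each library's trend over both removed, 85 genes passed the edgeR threshold. Of these 84 had opposite signs in the 2 genotypes, which selection by the interaction itself favours. Pakap, whose stress differences with all libraries had the same sign (−0.03 in WT and −1.35 in KO), had an edgeR adjusted p of 0.0259 in that fit. Chromosome 11, which carries Cacna1g, held 92 of the 1129 (8.15%) and 7.97% of all tested genes.

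**Figure D5:**
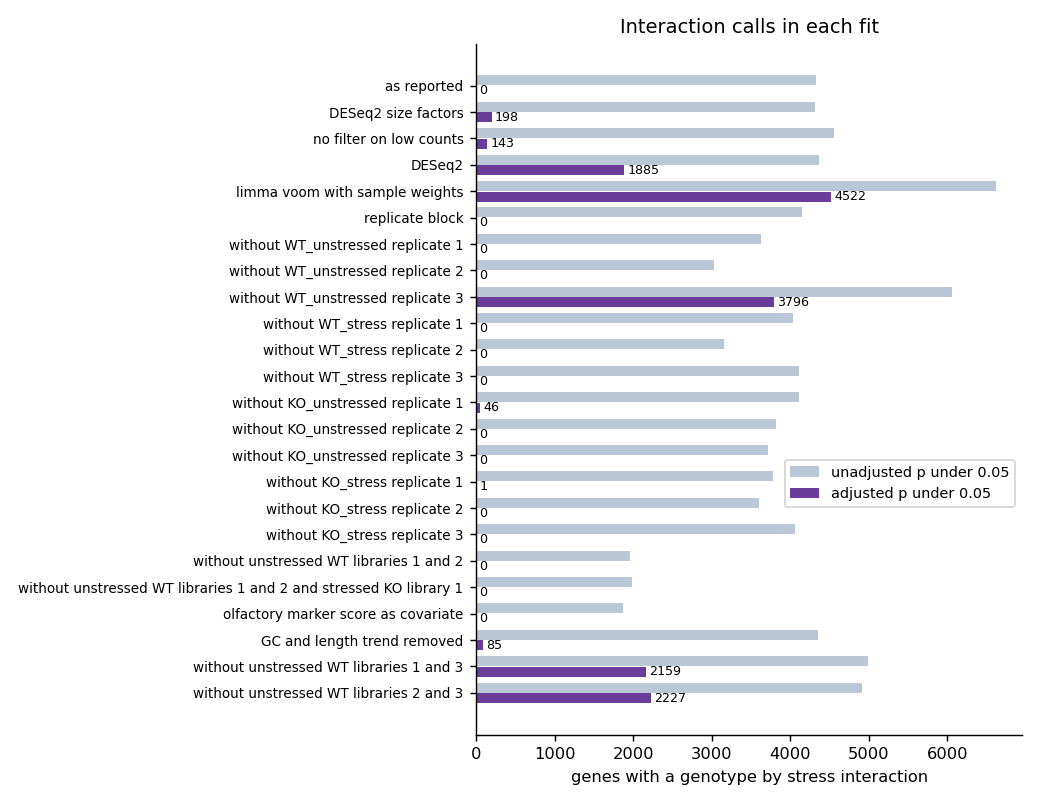
Number of genes with an interaction at an unadjusted p under 0.05 (grey) and at an adjusted p under 0.05 (purple, with the number printed) in the fit as reported and under 23 alternatives. The adjusted count is 0 in the fit as reported and 3796 without unstressed WT library 3, whereas it is 0 without library 1 or library 2 of that group.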

How the data were processed

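RNA from the medial prefrontal cortex was sequenced in 12 libraries, prepared with a kit that keeps strand, per the labels' protocols. The deposited table gives the authors' estimated counts for each gene symbol in each library, without normalisation. The submitters' processing notes name the build mm10 and the tools RSEM 1.3.1, STAR 2.7.9a, DESeq2 1.36.0 and Trim Galore 0.6.6. Which annotation and strand option the counting used is not given in the sources used here, so reads of overlapping genes may be mixed. Between 874 and 1032 genes per library carried decimals, and a gene was taken as uncertain where 6 or more libraries did.

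Counts were rounded. Genes with too few counts were removed (edgeR filterByExpr, minimum count 10, minimum total 15), which left 15199; 4412 had too few counts and 4800 had none. The interaction was a contrast in 1 quasi-likelihood fit (edgeR 4.0.16 in R 4.3.3) of 4 group means with TMM scaling, two-sided, with Benjamini-Hochberg adjustment over all tested genes and a threshold of 0.05. Levels are CPM on TMM-scaled library sizes, and errors are SE from the fit. No permutation test was run, because with groups of 3 its smallest p is 0.1. Alternatives used DESeq2 1.42.0, limma 3.58.1, other filters and fewer libraries. Leaving out unstressed WT libraries 1 and 2 was planned because earlier work on these data showed them apart; the GC and length correction (loess span 0.5) and leaving out libraries 1 and 3, or 2 and 3, were chosen after seeing the data. Positions, GC content and lengths are from GENCODE M21 on GRCm38, and promoters from RefSeq on GRCm38.p6.

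The members and gene lists were chosen with earlier results of these data known. Named genes are Cacna1g, the 20 smallest p, the 10 smallest p without 2 libraries, and the 4 smallest p of each list, each with a proper name and a mean log2 CPM not below 0; genes with opposite differences, genes with a difference in KO alone and a few further list members were chosen after their values were seen. A few genes that these rules name are not reported here. In simulated data with real means and library sizes (15096 genes), the test recovered 8 of 67 genes with a 1.5-fold interaction (11.9%), 34 of 67 with 2-fold (50.7%) and 60 of 66 with 4-fold (90.9%), with 10 false calls; counts were drawn gene by gene, so these are not error rates for the real data. Within groups, pairs of libraries differed by a chi-square of 5.07 to 72.1 per degree of freedom and were all kept as separate.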

Additional observations from a re-analysis of the deposited data

Results flagged for a closer look

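Libraries separated in opposite directions with stress in the 2 genotypes, all 3 against all 3 in each, for 523 genes. Beyond that separation the difference was tested only by the interaction term, which no gene passed after adjustment by edgeR.

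Among named genes with a positive interaction that met this rule were Erdr1 (2.09 on the log2 scale), Lrrc45 (0.73), Pcgf2 (1.01), Cep164 (0.93), Ano6 (1.20), Isyna1 (0.91), Bbc3 (1.16), Sox12 (0.97) and Ell (0.50). Of the list members, Sik1 had 1.47, Ddx58 1.02, Irf9 0.96, and Anpep, a peptidase of pericytes, 2.15.

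Negative interactions of this kind were found for Apln (−1.16), Ndfip2 (−0.81), Hnmt (−0.78), Nek7 (−0.47) and Adam9 (−0.35). Hmgcs1 of cholesterol synthesis had −0.85, the uncertain Rpl34 −1.20, the chaperone Hspa5 −0.46 and the AMPA receptor partner Cacng2 −0.45. Groups of 3 libraries are too small for the test of a single library far from the others.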

How the results depend on the processing

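The count of genes past the threshold (0 of 15199 as reported) was 198 with DESeq2 size factors in edgeR, 143 with no filter on low counts (19611 genes), 1885 with DESeq2, 4522 with limma voom weights and 85 with the GC and length trend removed. It was 2159 without unstressed WT libraries 1 and 3, and 2227 without libraries 2 and 3. Leaving out each library in turn gave 0 to 3796: 3796 without unstressed WT library 3, 46 without unstressed KO library 1, 1 without stressed KO library 1 and 0 without each of the other 9. Called genes with opposite signs (0 as reported) numbered 191, 139, 1693, 3261 and 84 in the first 5 of these alternatives, 1689 and 1631 without the 2 pairs, and 0 to 2869 with 1 library left out. Genes with an unadjusted p under 0.05 (4330) numbered 6625 with voom weights, 1963 without unstressed WT libraries 1 and 2, 1985 without these and stressed KO library 1, 1872 with the olfactory score as a covariate, and 3032 to 6057 with 1 library left out. The cause of these differences was not tested.

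The replicate block gave 0 calls and 4151 genes with an unadjusted p under 0.05. Of 18 same-numbered pairs 4 had a correlation over 0.1 (−0.25 to 0.36), and pairs with different numbers ran from −0.32 to 0.28. Whether libraries of the same number share a batch was not tested. Among 143 named genes and 23 alternatives, 7 of 3289 values reversed: Vwa3a (−0.21), Miat (−0.33) and Bpgm (0.01) without unstressed WT libraries 2 and 3, Sall1 (−0.01) with the olfactory covariate, and Foxj1 (−0.19) without unstressed WT libraries 1 and 2 and stressed KO library 1. The other 2 were of Rarres2, at −0.05 without stressed KO library 1 (−0.05 to 0.60 with 1 library left out) and −0.44 without that library and unstressed WT libraries 1 and 2. Another 2612 kept direction and side of the threshold and 670 passed it. Of 644 list medians 87 moved by more than 1 SD between libraries. Depth limits genes near 3 counts, 0.092 to 0.192 CPM.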

Other observations

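Glial and other neuronal markers outside the pathway lists had both signs. Neurod6, a transcription factor of excitatory neurons, stood at 62.0, 78.5 and 114.4 CPM in unstressed WT and between 130.2 and 196.4 CPM in the other 9 libraries, with an interaction of −0.94 ± 0.28 that became −0.52 without unstressed WT libraries 1 and 2. Slc1a2, the main glutamate transporter of astrocytes, stood at 2322, 3244 and 2201 CPM in unstressed KO and at 1807, 1932 and 1702 CPM in stressed KO (interaction −0.75). In that gene the KO groups separated and the WT groups, at 1525 to 1980 CPM unstressed and 1828 to 2247 CPM stressed, overlapped. Its highest library, unstressed KO library 2, also had the highest astrocyte marker sum, 10190 CPM against 6127 to 9095 CPM elsewhere. The astrocyte list was mixed, with 14 members positive, 11 negative and a median of 0.19 (−0.13 without unstressed WT libraries 1 and 2). Agt, Atp1b2 and Sox9, named by the same rule as Slc1a2, were positive (1.59, 0.46 and 0.45). Pcdh15, a protocadherin of oligodendrocyte precursors, had 0.65, and Kdr, a receptor of endothelial cells, 0.51. Mog, a myelin protein, had −0.87 with 35.3 CPM in stressed KO library 1 and 18.1 and 17.9 CPM in the other 2 of its group.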
